A study of Homo sapiens with 6 samples.

Results

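The genes described are the DNAJ (HSP40) co-chaperones of MM1.S, a human multiple myeloma cell line. They were taken as every listed symbol that begins with DNAJA, DNAJB or DNAJC followed by a digit, except DNAJC3, which gave 36 of the 11048 listed genes. RefSeq holds 43 protein-coding genes with such symbols, and the 7 not listed were DNAJB7, DNAJB8, DNAJB13, DNAJC5B, DNAJC5G, DNAJC22 and DNAJC28. MM1.S cells were exposed for 6 h to the DMSO vehicle, to 3 µM of the protein disulfide isomerase inhibitor CCF642, or to 3 µM of its analogue CCF642-34, and polyA RNA from 2 libraries per group was sequenced. All 6 libraries came from the same cell line, no other agent is named, and no source states whether the replicates were separate cultures, so p values describe the spread between these libraries, which may be technical. Because a culture is measured in bulk, fewer cells of a kind and less RNA per cell cannot be told apart.

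A DNAJ protein carries a J domain, with which it docks onto an HSP70 and stimulates ATP hydrolysis, so that the HSP70 closes on its client. The family decides where and on which clients HSP70 works: ER members serve BiP (HSPA5), cytosolic members serve HSPA8 and the inducible HSP70s, and mitochondrial members serve HSPA9 or act at the import channel. Transcription of several ER members belongs to the unfolded protein response, which plasma cells use during antibody secretion, and several cytosolic members are induced through heat shock factor 1 (HSF1).

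The promoters of the ER lumen members and of the cytosolic heat-inducible members are shown because these are the groups that the compounds are compared on. The sequences are RefSeq's on GRCh38.p14, in the direction of transcription, and each line runs from 150 bases before an annotated start to 20 bases after it. RefSeq windows, which run from 250 bases before a start to 50 after it, were matched for 34 of the 36 members, in 46 windows; DNAJC1 and DNAJC24 had none. For genes with several windows, the line shows a window that holds a match. Capitals mark matches to a motif searched on both strands.
DNAJB9, chr7:108569724-108569893, plus strand: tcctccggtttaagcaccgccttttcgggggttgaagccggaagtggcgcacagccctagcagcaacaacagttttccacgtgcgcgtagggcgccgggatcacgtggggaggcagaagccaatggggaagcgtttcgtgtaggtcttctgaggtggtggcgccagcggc
DNAJB11, chr3:186570570-186570739, plus strand: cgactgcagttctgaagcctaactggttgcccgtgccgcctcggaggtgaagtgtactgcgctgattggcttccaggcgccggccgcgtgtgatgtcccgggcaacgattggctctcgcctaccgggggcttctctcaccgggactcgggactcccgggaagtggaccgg
DNAJC10, chr2:182716107-182716276, plus strand: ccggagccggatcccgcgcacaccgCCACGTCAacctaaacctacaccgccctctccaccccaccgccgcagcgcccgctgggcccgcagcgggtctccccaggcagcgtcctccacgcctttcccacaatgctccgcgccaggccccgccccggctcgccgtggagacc
DNAJA1, chr9:33025123-33025292, plus strand: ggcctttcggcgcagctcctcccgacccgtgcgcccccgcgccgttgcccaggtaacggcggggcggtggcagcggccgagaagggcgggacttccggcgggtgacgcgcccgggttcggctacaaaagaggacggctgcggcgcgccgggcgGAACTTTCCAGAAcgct
DNAJA4, chr15:78264412-78264581, plus strand: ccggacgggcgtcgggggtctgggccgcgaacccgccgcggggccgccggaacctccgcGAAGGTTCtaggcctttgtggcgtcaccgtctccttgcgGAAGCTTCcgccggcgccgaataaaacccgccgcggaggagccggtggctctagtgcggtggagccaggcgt
DNAJB1, chr19:14518378-14518547, minus strand: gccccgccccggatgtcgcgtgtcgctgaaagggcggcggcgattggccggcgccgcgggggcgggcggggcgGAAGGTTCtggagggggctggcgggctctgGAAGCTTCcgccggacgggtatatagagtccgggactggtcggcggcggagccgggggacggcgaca
DNAJB4, chr1:78004789-78004958, plus strand: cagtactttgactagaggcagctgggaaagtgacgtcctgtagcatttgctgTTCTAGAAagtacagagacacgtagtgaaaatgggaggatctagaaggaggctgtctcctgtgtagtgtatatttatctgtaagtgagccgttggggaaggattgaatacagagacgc
DNAJB6, chr7:157336854-157337023, plus strand: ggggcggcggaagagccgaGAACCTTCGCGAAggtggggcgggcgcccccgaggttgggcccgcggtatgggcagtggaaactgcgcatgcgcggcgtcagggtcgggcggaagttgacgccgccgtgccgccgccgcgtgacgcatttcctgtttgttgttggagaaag

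The heat shock element, the site of HSF1, is a run of alternating GAA and TTC units. Its form with 3 units, GAA, TTC and GAA with any 2 bases between neighbours, was found in the windows of DNAJA1, just after the start, and of DNAJB6, and in 0.49% of all 35116 windows. After that search, pairs of units were searched as TTCNNGAA, held by 7.74% of windows, and as GAANNTTC, held by 6.77%. Both pairs overlap the form with 3 units. All 5 heat-inducible members had a pair in at least 1 window, and DNAJA4 and DNAJB1 had 2 copies of GAANNTTC in the windows shown, while none of the 3 ER lumen members with a window had either pair. Of the members outside the heat-inducible list, DNAJC6 and DNAJC15 also had a pair. One of the pairs stood in 13.5% of all windows and in at least 1 window of 13.7% of the listed genes with a window; DNAJA4 and DNAJB1 have 3 windows each and DNAJB4 has 2, which gives them more bases to match. The core of the unfolded protein response element, TGACGTGG, matched DNAJC10 on the opposite strand, where it reads as the capitals shown, and 0.729% of all windows. The ER stress response elements, searched as CCAAT and CCACG with any 9 bases between them and as ATTGG and CCACG with any base between them, matched no member, against 0.0769% and 0.0541% of all windows, and TGATGNAA, the core of the C/EBP-ATF response element, matched a window of DNAJA4 that is not shown and 3.62% of all windows. A match describes letters and is neither a site nor a cause, and where no match was found, only these letters are missing from this window.

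Most DNAJ genes that changed rose, and the largest increases belonged to different compartments. Values are the deposited CPM, in which a gene's reads are scaled to a common library total, before TMM. Differences are log2 fold changes with their standard errors, from limma on log2(CPM + 1) after TMM scaling, which trims the extreme genes before libraries are set to a common level; this scale understates changes of genes with few reads. A gene was called when its Benjamini-Hochberg adjusted p, taken over all 11048 genes, was under 0.05. With CCF642, 20 of the 36 members were higher than with DMSO and 5 were lower, where 31.8% of all listed genes were called higher and 31.3% lower. With CCF642-34, 21 members were higher and 3 lower, where the shares of all genes were 29.8% and 27.8%. The members' median log2 fold change was 0.23 with CCF642 and 0.20 with CCF642-34, and that of all genes was -0.007 and 0.007. Members called and changed at least 2-fold were DNAJA4, DNAJB1, DNAJB2, DNAJB4 and DNAJB9 with CCF642, and DNAJB2 and DNAJB9 with CCF642-34, all of them higher. Among all genes, 4.5% were higher and 1.99% lower at that size with CCF642, and 2.59% higher and 1.29% lower with CCF642-34.

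Both comparisons share the DMSO libraries. The 5 members called lower with CCF642 were DNAJC9, DNAJC10, DNAJC11, DNAJC14 and DNAJC15, and the 3 called lower with CCF642-34 were DNAJC9, DNAJC11 and DNAJC14.

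Among the 4 ER lumen members, DNAJB9 rose most, and to overlapping levels with the compounds. DNAJB9 (ERdj4), which binds BiP and also helps to deliver misfolded proteins for degradation, stood at 186 and 175 CPM with DMSO, 632 and 596 CPM after CCF642 and 595 and 626 CPM after CCF642-34. The 4 treated libraries lay far above the DMSO libraries, and the ranges of the compounds overlapped. The log2 fold change was 1.89 ± 0.04 with CCF642 and 1.84 ± 0.04 with CCF642-34, or 3.71-fold and 3.58-fold (limma, adjusted p = 1.42e-37 and 9.16e-37). Exons of DNAJB9 overlap those of 2 listed genes on the opposite strand, THAP5 over 183 bases and PNPLA8 over 99 bases. Mean CPM with DMSO, CCF642 and CCF642-34 was 71.0, 106 and 97.9 for THAP5 and 77.6, 165 and 161 for PNPLA8. Whether the counting used strand is not stated, so reads in these bases cannot be told apart.

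DNAJB11 (ERdj3), a soluble BiP partner that binds unfolded clients directly, stood at 258 and 256 CPM with the vehicle, at 319 and 310.4 CPM with CCF642 and at 342 and 352 CPM with its analogue. All 4 treated libraries were above the DMSO libraries, and the CCF642-34 libraries were above the CCF642 libraries. Its exons share 381 bases with TBCCD1 on the opposite strand. DNAJB11 rose by 0.42 ± 0.04 with CCF642 and by 0.52 ± 0.04 with CCF642-34 (adjusted p = 1.37e-12 and 2.58e-15, limma). DNAJC1 (ERdj1) reaches from the ER membrane with its J domain in the lumen and can bind ribosomes. Its values of 194 and 199 CPM with the vehicle, at 199 and 198 CPM with CCF642 and at 233 and 238 CPM with its analogue put the CCF642-34 libraries above all others, and its log2 fold changes were 0.15 ± 0.04 and 0.35 ± 0.04 (adjusted p = 0.00276 and 2.41e-09, limma). The CPM of DNAJC1 with CCF642 overlapped that with DMSO, and with library size alone in place of TMM its increase with CCF642 was 0.017 (adjusted p = 0.742), and without DMSO replicate 1 it was 0.13 (adjusted p = 0.0613). DNAJC10 (ERdj5), a reductase with thioredoxin domains that breaks disulfides of clients bound for degradation, went the other way with CCF642. At 325 and 329 CPM with the vehicle, at 272 and 283 CPM with CCF642 and at 320.2 and 322 CPM with its analogue, it was lowest in the CCF642 libraries and fell by 0.10 on the log2 scale (SE 0.04, adjusted p = 0.032, limma), a call lost without either DMSO library or without CCF642 replicate 1 (adjusted p from 0.107 to 0.191), and with DESeq2 on the recovered reads. With CCF642-34 its log2 fold change was 0.07 ± 0.04 (adjusted p = 0.176).

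**Figure D1:**
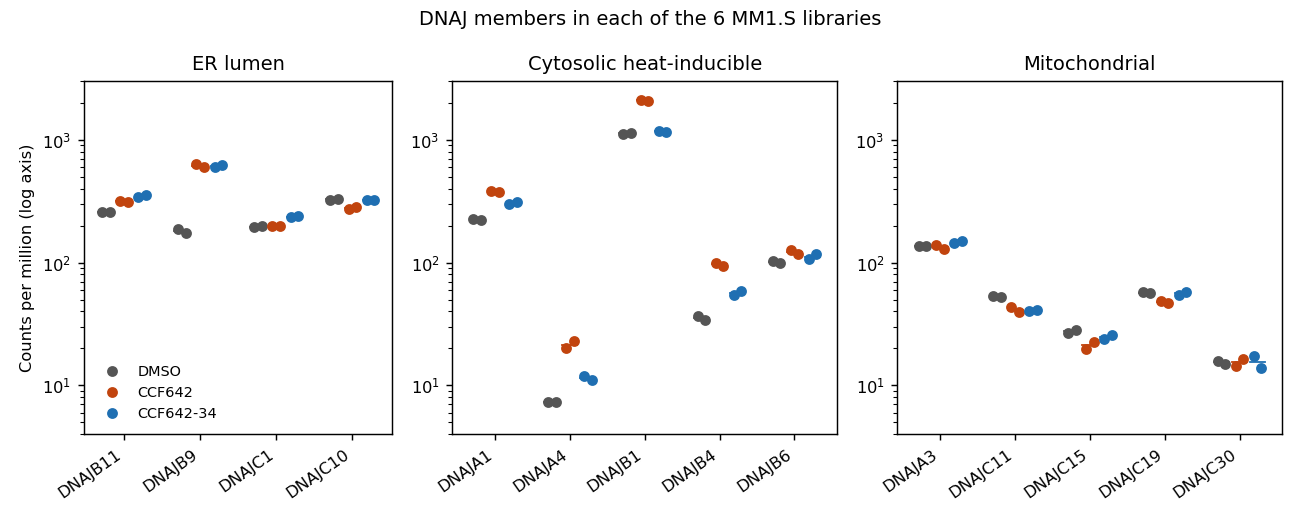
Deposited CPM on a log axis for the 4 ER lumen, 5 cytosolic heat-inducible and 5 mitochondrial DNAJ members; each point is a library, each short line the mean of the 2 libraries of a group. DNAJB9 lay between 595 and 632 CPM in all 4 treated libraries, whereas DNAJB1 lay at 2113 and 2070.3 CPM with CCF642 and no higher than 1166 CPM in the other libraries.

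Of the 4 members of the ER membrane list, 2 were called higher with each compound and 2 were called with neither. Of all genes, 31.8% were called higher with CCF642 and 29.8% with CCF642-34. Whether a list of 4 departs from these shares was not tested. DNAJB14, which with DNAJB12 recruits HSPA8 for membrane protein degradation, stood at 69.9 and 65.9 CPM with the vehicle, at 73.8 and 80.2 CPM with CCF642 and at 72.3 and 74.5 CPM with its analogue and rose by 0.31 ± 0.06 and 0.20 ± 0.06 (adjusted p = 2.02e-05 and 0.00461, limma). DNAJC18, of low expression, stood at 6.96 and 7.15 CPM in the DMSO libraries, 9.72 and 7.70 CPM in the CCF642 libraries and 9.10 and 11.2 CPM in the CCF642-34 libraries and rose by 0.38 ± 0.14 and 0.54 ± 0.14 (adjusted p = 0.0149 and 0.000824, limma). In both genes every treated library was above the DMSO libraries. The call of DNAJB14 with CCF642-34 was lost with library size alone (adjusted p = 0.116) and without DMSO replicate 2 (0.0978). That of DNAJC18 with CCF642 was lost with library size alone, with DESeq2 and without DMSO replicate 1 or CCF642 replicate 1 (adjusted p from 0.0537 to 0.201), and with CCF642-34 it was lost without CCF642-34 replicate 2 (0.0539). DNAJB12 had log2 fold changes of 0.04 ± 0.06 and 0.10 ± 0.06, DNAJC16 of -0.08 ± 0.07 and -0.05 ± 0.07, and neither was called with a compound (adjusted p from 0.14 to 0.589). Exons of DNAJC16 share 82 bases with AGMAT on the opposite strand.

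The 5 cytosolic heat-inducible members all rose with each compound, and each rose more with CCF642. Their median log2 fold change was 1.02 with CCF642 and 0.54 with CCF642-34, that of the ER lumen members 0.29 and 0.44. DNAJB1 (HDJ1), the principal HSF1-induced partner of HSPA8 and of the inducible HSP70s, stood at 1120.4 and 1141 CPM in the DMSO libraries, 2113 and 2070.3 CPM in the CCF642 libraries and 1166 and 1165 CPM in the CCF642-34 libraries. The CCF642 libraries stood far above the rest, while the CCF642-34 libraries were just above the DMSO libraries. Its log2 fold change was 1.02 ± 0.03 with CCF642 (2.03-fold, adjusted p = 9.94e-30, limma) and 0.13 ± 0.03 with CCF642-34 (1.10-fold, adjusted p = 0.000797). The small increase with CCF642-34 depended on the scaling and with library size alone was 0.044 (adjusted p = 0.259). DNAJB1 exons overlap TECR on the opposite strand over 211 bases, and the mean CPM of TECR was 130.2, 111 and 115 in the same order of groups.

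DNAJA1 (HDJ2), a farnesylated partner of HSPA8, stood at 227 and 221 CPM with DMSO, 383 and 374 CPM after CCF642 and 300.0 and 311 CPM after CCF642-34. The CCF642-34 libraries lay between the other groups, and no groups overlapped. It rose by 0.89 ± 0.04 and 0.54 ± 0.04 (adjusted p = 7.28e-24 and 1.48e-15, limma). GENCODE names 6 pseudogenes after DNAJA1, and how reads that match both were assigned is not stated. DNAJB4 (HLJ1), a close relative of DNAJB1, stood at 37.0 and 33.9 CPM in the DMSO libraries, 99.9 and 94.4 CPM in the CCF642 libraries and 54.1 and 58.2 CPM in the CCF642-34 libraries, in the same order of groups. Its increases of 1.56 ± 0.07 and 0.74 ± 0.07 (adjusted p = 1.31e-25 and 1.71e-13, limma) were 2.95-fold and 1.67-fold.

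DNAJA4, a class A member with low expression here, stood at 7.39 and 7.38 CPM with DMSO, 20.2 and 22.8 CPM after CCF642 and 11.9 and 11.0 CPM after CCF642-34. Again the CCF642 libraries were the highest and the CCF642-34 libraries lay between. Its increases were 1.54 ± 0.12 and 0.65 ± 0.12 (adjusted p = 6.12e-16 and 7.28e-06, limma). DNAJB6, which holds back aggregation of polyglutamine proteins, stood at 103 and 99.0 CPM with DMSO, 127 and 117 CPM after CCF642 and 107 and 117 CPM after CCF642-34, and the higher CCF642-34 library came within 1 CPM of the lower CCF642 library. It rose by 0.40 ± 0.05 with CCF642, the smallest increase of the list, and by 0.23 ± 0.05 with CCF642-34 (adjusted p = 1.71e-08 and 0.000287, limma).

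**Figure D2:**
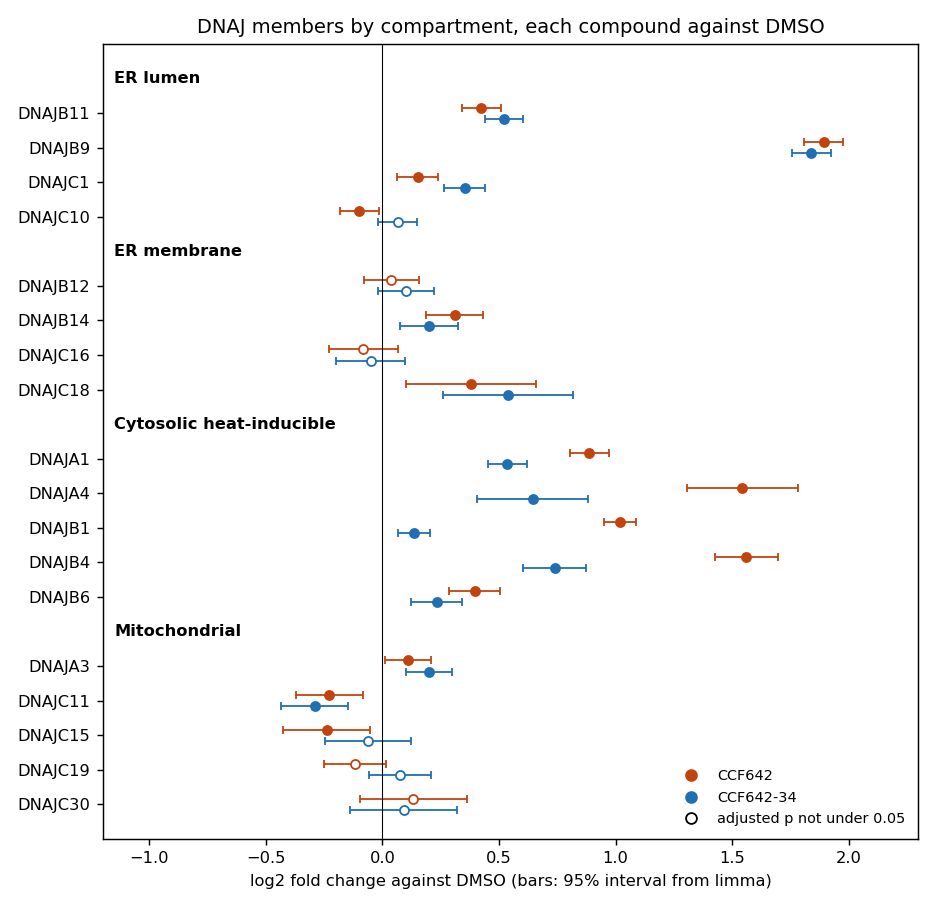
Log2 fold change against DMSO with its 95% interval for 18 DNAJ members by compartment, CCF642 in red and CCF642-34 in blue; open circles had an adjusted p of 0.05 or more. The compounds lie together for DNAJB9, at 1.89 and 1.84, and apart for DNAJB1, at 1.02 and 0.13.

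The 5 mitochondrial members showed small changes in both directions. DNAJC11, an outer membrane protein of the complex that joins the cristae to the outer membrane, stood at 53.3 and 52.8 CPM with DMSO, 43.1 and 39.3 CPM after CCF642 and 40.0 and 41.1 CPM after CCF642-34. The 4 treated libraries were below both DMSO libraries, and it fell by 0.23 and by 0.29 on the log2 scale (SE 0.07 and 0.07, adjusted p = 0.00503 and 0.000518, limma). Its exons overlap those of THAP3 on the opposite strand over 1419 bases. Without CCF642 replicate 2 its log2 fold change with CCF642 was -0.17 and not called (adjusted p = 0.0684). DNAJC15 (MCJ), an inner membrane member that restrains the respiratory chain, stood at 26.9 and 28.3 CPM in the DMSO libraries, 19.9 and 22.4 CPM in the CCF642 libraries and 23.8 and 25.9 CPM in the CCF642-34 libraries and fell by 0.24 with CCF642 (SE 0.09, adjusted p = 0.0215, limma). With CCF642-34 its log2 fold change was -0.06 ± 0.09 (adjusted p = 0.593). The fall of DNAJC15 with CCF642 was no longer called without DMSO replicate 2 or CCF642 replicate 1 (adjusted p = 0.150 and 0.195) or with DESeq2 on the recovered reads (adjusted p = 0.0692).

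DNAJA3 (TID1), the matrix partner of HSPA9, stood at 136 and 137 CPM with the vehicle, at 139 and 129.5 CPM with CCF642 and at 146 and 149 CPM with its analogue, and with CCF642 its CPM overlapped that with DMSO. It was called higher with CCF642-34, at 0.20 ± 0.05 (adjusted p = 0.000587, limma), and missed the threshold with library size alone (0.11, adjusted p = 0.0546). Its call with CCF642, at 0.11 ± 0.05 (adjusted p = 0.0494), was lost in 11 of 15 alternatives, and the sign turned with library size alone, to -0.023. DNAJC19 (TIM14), which anchors HSPA9 to the import channel, had log2 fold changes of -0.12 ± 0.07 and 0.08 ± 0.07, and DNAJC30, tied to oxidative phosphorylation, of 0.13 ± 0.11 and 0.09 ± 0.11; neither was called. GENCODE names 9 pseudogenes after DNAJC19. The median of the list was -0.12 with CCF642 and 0.08 with CCF642-34.

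Of the 18 members outside these lists, 7 met the rule for naming, a call with a log2 fold change of at least 0.5 in either direction. The one that changed most was DNAJB2 (HSJ1), which carries ubiquitin-interacting motifs and passes HSP70 clients to the proteasome. DNAJB2 stood at 88.4 and 81.6 CPM with the vehicle, at 251 and 224 CPM with CCF642 and at 179 and 171 CPM with its analogue, with no overlap between groups. It rose by 1.60 ± 0.05 with CCF642 and 1.12 ± 0.05 with CCF642-34, or 3.04-fold and 2.18-fold (limma, adjusted p = 2.48e-30 and 8.08e-24). DNAJA2, a class A partner of HSPA8 that is not counted as heat-inducible, stood at 85.3 and 84.8 CPM in the DMSO libraries, 119 and 125 CPM in the CCF642 libraries and 123 and 125 CPM in the CCF642-34 libraries. Its increases were 0.65 ± 0.05 and 0.62 ± 0.05 (adjusted p = 4.54e-15 and 2.28e-14, limma), with the treated libraries all above the DMSO libraries.

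DNAJC25, at 14.0 and 15.1 CPM with the vehicle, at 24.9 and 27.2 CPM with CCF642 and at 24.5 and 23.6 CPM with its analogue, rose by 0.93 ± 0.10 and 0.77 ± 0.10 (adjusted p = 1.15e-11 and 2.31e-09, limma). DNAJC2 (MPP11), which works with HSPA14 on ribosomes, stood at 52.6 and 48.0 CPM with DMSO, 71.5 and 77.0 CPM after CCF642 and 64.0 and 72.9 CPM after CCF642-34 and rose by 0.69 ± 0.07 and 0.52 ± 0.07 (adjusted p = 1.63e-12 and 3.80e-09, limma). Exons of DNAJC2 share 628 bases with PMPCB on the opposite strand, which had a mean of 104, 104 and 109 CPM with DMSO, CCF642 and CCF642-34. DNAJC27, a small GTPase with a J domain, stood at 12.7 and 14.8 CPM in the DMSO libraries, 20.2 and 20.4 CPM in the CCF642 libraries and 15.4 and 18.5 CPM in the CCF642-34 libraries and rose by 0.66 ± 0.11 and 0.36 ± 0.11 (adjusted p = 8.85e-07 and 0.00404, limma). In each of these genes every treated library exceeded both DMSO libraries. The increase of DNAJC27 with CCF642-34 was not called without DMSO replicate 1 or CCF642-34 replicate 2 (adjusted p = 0.109 and 0.140). DNAJC12, which assists the folding of aromatic amino acid hydroxylases, was close to the lowest values listed, at 1.74 and 1.31 CPM in the DMSO libraries, 2.09 and 2.43 CPM in the CCF642 libraries and 3.44 and 2.27 CPM in the CCF642-34 libraries. Its increases of 0.46 ± 0.20 and 0.66 ± 0.20 (adjusted p = 0.0461 and 0.0053, limma) had wide errors, and the call with CCF642 was lost in 8 of 14 alternatives. Among these were library size alone (0.37, adjusted p = 0.103), the fits without DMSO replicate 2 (0.34, adjusted p = 0.252) or CCF642 replicate 2 (0.38, adjusted p = 0.170), and edgeR, limma-voom and DESeq2 on the recovered reads, where the log2 fold change was larger, from 0.70 to 0.71, and the adjusted p from 0.0579 to 0.118. Leaving out CCF642-34 replicate 1, its highest library, gave 0.43 with CCF642-34 (adjusted p = 0.160), and leaving out DMSO replicate 2 gave 0.53 (adjusted p = 0.0677).

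The only one of these 7 to fall was DNAJC14, known as a chaperone for receptor export and not on the ER membrane list. It stood at 60.5 and 56.5 CPM with DMSO, 36.8 and 37.7 CPM after CCF642 and 46.3 and 47.1 CPM after CCF642-34, with no overlap between groups, and fell by 0.51 with CCF642 and by 0.23 with CCF642-34 on the log2 scale (SE 0.07 and 0.07, adjusted p = 1.99e-08 and 0.00452, limma). Without DMSO replicate 1 the fall with CCF642-34 was no longer called (adjusted p = 0.108). Exons of DNAJC14 overlap those of ORMDL2 over 920 bases and of TMEM198B over 541 bases, both on the opposite strand. Mean CPM with DMSO, CCF642 and CCF642-34 was 39.1, 30.1 and 38.9 for ORMDL2 and 24.5, 19.3 and 16.8 for TMEM198B. Reads in the shared bases cannot be told apart, and their part in the fall of DNAJC14 was not tested.

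The remaining 11 members were DNAJB5, DNAJC4, DNAJC5, DNAJC6, DNAJC7, DNAJC8, DNAJC9, DNAJC13, DNAJC17, DNAJC21 and DNAJC24, and their log2 fold changes ran from -0.22 to 0.50 with CCF642 and from -0.31 to 0.39 with CCF642-34. With CCF642, 3 of them (27.3%) were called higher and 1 (9.09%) lower, beside 31.8% and 31.3% of all genes, and with CCF642-34, 4 (36.4%) higher and 1 (9.09%) lower, beside 29.8% and 27.8%. DNAJC7 (TPR2), which stands between HSP70 and HSP90, rose by 0.48 ± 0.05 and 0.34 ± 0.05 (adjusted p = 6.60e-11 and 2.42e-07, limma), and shares exon bases with CNP (401) and NKIRAS2 (484) on the opposite strand. DNAJC9, a histone chaperone, fell by 0.22 and by 0.31 (SE 0.05 and 0.05, adjusted p = 0.000199 and 5.94e-07, limma), and shares 949 exon bases with FAM149B1 on the opposite strand and 20 with MRPS16 on the same strand, which had a mean of 133, 86.3 and 114 CPM in the 3 groups. The exons of DNAJC4 share 297 bases with NUDT22 on the same strand, and those of DNAJC17 overlap C15orf62, GCHFR and ZFYVE19 on the opposite strand.

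Between the compounds themselves, the heat-inducible members were lower with CCF642-34 than with CCF642, and the ER lumen members were not. In this direct comparison at the same dose and time, 7 of the 36 members were called higher with CCF642-34 and 8 lower, where 15.9% of all genes were called higher and 17.4% lower. No member differed by as much as 2-fold, a size that 0.308% of all genes reached with a call. All 5 heat-inducible members were among the 8 lower ones, and the others were DNAJB2, DNAJC7 and DNAJC27. Their values were -0.90 ± 0.12 for DNAJA4, -0.89 ± 0.03 for DNAJB1, -0.82 ± 0.07 for DNAJB4, -0.35 ± 0.04 for DNAJA1 and -0.16 ± 0.05 for DNAJB6 (limma, adjusted p = 3.84e-08, 6.48e-26, 3.25e-14, 2.93e-09 and 0.0169). DNAJA4, DNAJB1 and DNAJB4 were thus 1.86-fold, 1.85-fold and 1.77-fold lower with CCF642-34. The call of DNAJB6 was lost with library size alone (adjusted p = 0.0859), without CCF642 replicate 1 (0.162) and without CCF642-34 replicate 1 (0.261). DNAJB2 differed by -0.48 ± 0.05 (adjusted p = 2.65e-10, limma) and DNAJC27 by -0.30 ± 0.11 (adjusted p = 0.0304), the latter lost with library size alone, with DESeq2 on the recovered reads and without CCF642 replicate 2 or CCF642-34 replicate 1 (adjusted p from 0.0643 to 0.371).

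DNAJB9 did not pass the test between the compounds, at -0.05 ± 0.04 with a 95% interval from -0.14 to 0.03 (adjusted p = 0.344, limma). DNAJB11 was at 0.10 ± 0.04, with an interval from 0.01 to 0.18 (adjusted p = 0.0625), and passed with library size alone (0.14, adjusted p = 0.00568) and without CCF642 replicate 1 (0.11, adjusted p = 0.0456). DNAJC1 and DNAJC10 were higher with CCF642-34, by 0.20 ± 0.04 and 0.17 ± 0.04 (adjusted p = 0.000335 and 0.00148, limma). DNAJC14 and DNAJC5, the latter the cysteine string protein of secretory vesicles, were higher by 0.28 ± 0.07 and 0.30 ± 0.06 (adjusted p = 0.00174 and 0.00017, limma). DNAJC13, DNAJC19 and DNAJC8 made up the 7 higher ones, at 0.20, 0.19 and 0.19. The call of DNAJC19 was lost with DESeq2 (adjusted p = 0.0625) and without CCF642 replicate 2 or CCF642-34 replicate 2 (0.0629 and 0.150). DNAJA2 also did not pass, with an interval from -0.13 to 0.08.

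**Figure D3:**
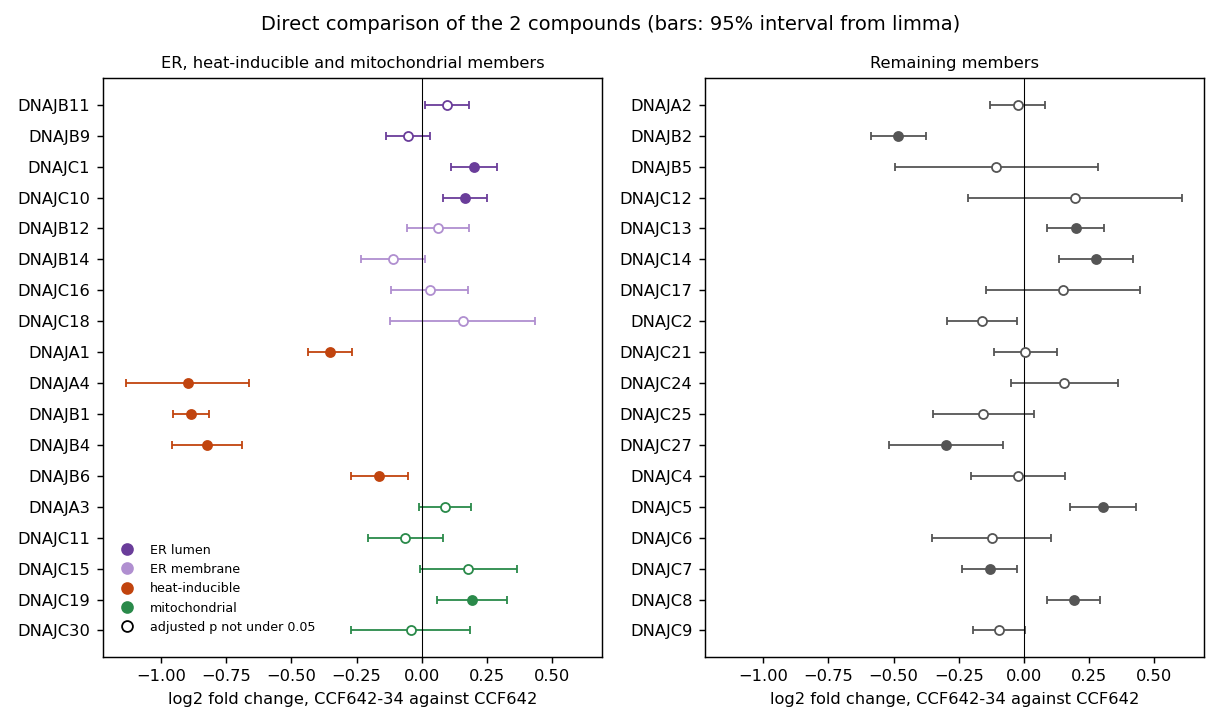
Log2 fold change of CCF642-34 against CCF642 with its 95% interval for all 36 DNAJ members; colours give the compartment lists, grey the remaining members, and open circles an adjusted p of 0.05 or more. DNAJA4, DNAJB1 and DNAJB4 form the low end, between -0.90 and -0.82, and the highest value of a member is 0.303.

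The summed level of the family followed these genes. The 36 members added up to 3992 and 3955 CPM in the vehicle libraries, to 5803 and 5709 CPM with CCF642 and to 4779 and 4873 CPM with CCF642-34. The groups did not overlap, and the CCF642-34 libraries lay between the others. Without DNAJB1 the sum was 2871 and 2814 CPM with DMSO, 3690 and 3638 CPM with CCF642 and 3612 and 3707 CPM with CCF642-34. In that sum the compounds overlapped, and all treated libraries lay above the DMSO libraries. DNAJB1 alone made up 28.1% and 28.9% of the sum with DMSO, 36.4% and 36.3% with CCF642 and 24.4% and 23.9% with CCF642-34.

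**Figure D4:**
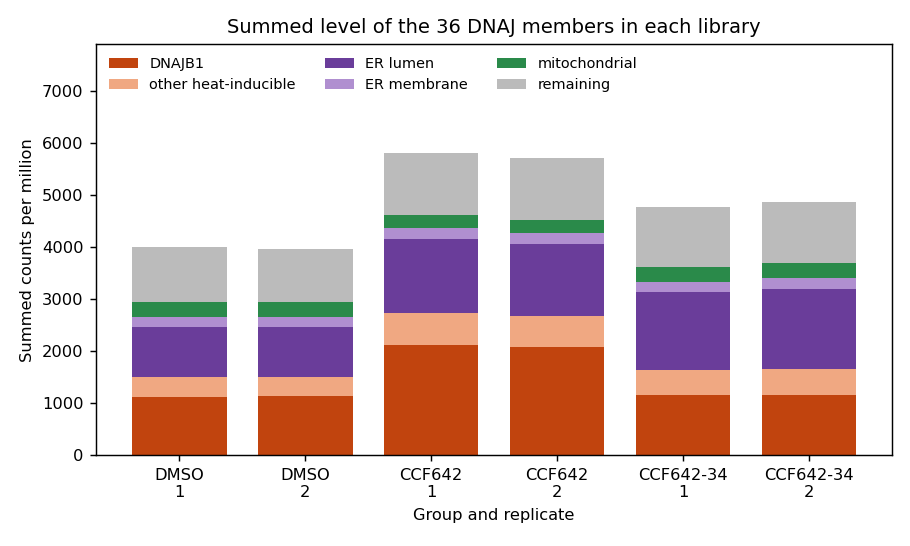
Summed CPM of the 36 DNAJ members in each library, divided into DNAJB1, the other heat-inducible members, ER lumen, ER membrane, mitochondrial and remaining members. The tallest bars are the CCF642 libraries, at 5803 and 5709 CPM, and their DNAJB1 segments are the largest.

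The summed CPM and the shares of DNAJB1 were not divided by gene length. Genes were ranked per length, as the mean CPM of a group per kilobase of the union of a gene's exons in GENCODE release 29. DNAJB1 ranked highest of the 36 in each group, at 462, 854 and 476 CPM per kilobase with DMSO, CCF642 and CCF642-34. DNAJB9 went from rank 6 with DMSO, at 66.5 CPM per kilobase, to rank 2 with each compound, at 226 and 225. It thereby stood above DNAJB11, which had rank 2 with DMSO and ranks 4 and 3 with the compounds, at 131 and 145 CPM per kilobase. DNAJB2 moved from rank 13 to ranks 6 and 7, and DNAJB4 from rank 22 to ranks 13 and 15. DNAJB5 and DNAJC12 held the lowest ranks in every group. DNAJC14 went from rank 17 to rank 25 with CCF642.

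HSP70s and their larger relatives were read from a list of 15 genes, of which 12 were listed. HSPA1A, HSPA2 and HSPA12B were not. The relatives HSPA4, HSPA4L, HSPH1 and HYOU1 act as exchange factors of HSP70 and were all called higher with each compound. HSPA4, HSPA4L and HSPH1 were also called lower with CCF642-34 than with CCF642. These relatives are part of the counts that follow. With CCF642, 10 of the 12 passed the test upward and 1 downward, with CCF642-34, 9 and 1, and directly compared, 8 had less RNA with CCF642-34 and 0 had more, beside the shares of all genes given above. HSPA5 (BiP), the partner of the ER lumen members, stood at 1331 and 1328 CPM with the vehicle, at 2854 and 2934 CPM with CCF642 and at 2308 and 2332 CPM with its analogue and rose by 1.26 ± 0.03 and 0.89 ± 0.03 (adjusted p = 8.71e-34 and 1.88e-27, limma). Between the compounds it differed by -0.36 ± 0.03 (CCF642-34 against CCF642, adjusted p = 3.32e-12). HSPA13, of the same list, rose by 1.45 ± 0.04 and 1.52 ± 0.04 (adjusted p = 1.01e-32 and 3.05e-33, limma). HYOU1 rose by 0.69 ± 0.04 and 0.73 ± 0.04 (adjusted p = 5.24e-22 and 7.47e-23, limma). Unlike HSPA5, neither was called between the compounds, at 0.07 ± 0.04 and 0.05 ± 0.04 (adjusted p = 0.232 and 0.355, limma). The inducible cytosolic HSPA1B, a partner of DNAJB1, stood at 141 and 139.9 CPM in the DMSO libraries, 285 and 288 CPM in the CCF642 libraries and 134 and 126 CPM in the CCF642-34 libraries. It rose by 1.16 ± 0.05 with CCF642 and was at -0.02 ± 0.05 with CCF642-34 (adjusted p = 2.21e-26 and 0.716, limma). HSPA1B has a near-identical copy in HSPA1A, so its reads are uncertain. HSPA6, another inducible cytosolic HSP70, stood at 254 and 265 CPM with DMSO, 1147 and 1048 CPM after CCF642 and 508 and 488 CPM after CCF642-34, with no overlap between groups. It rose by 2.21 ± 0.04 with CCF642, the largest increase of the list, and by 1.03 ± 0.04 with CCF642-34 (adjusted p = 1.22e-40 and 1.46e-26, limma), and was lower with CCF642-34 than with CCF642 by 1.18 on the log2 scale (SE 0.04, adjusted p = 7.60e-28). HSPA7, a pseudogene, is a near copy of HSPA6, so these reads are uncertain too. The constitutive HSPA8 rose by 0.84 ± 0.03 and 0.40 ± 0.03 (adjusted p = 1.52e-26 and 3.10e-14, limma). The mitochondrial HSPA9 stood at 522 and 519.9 CPM with DMSO, 1024 and 1043 CPM after CCF642 and 964 and 995 CPM after CCF642-34, with the treated libraries far above the DMSO libraries, and rose with each compound (adjusted p = 1.74e-30 and 3.15e-28, limma); its fold, 2.17 with CCF642, exceeded that of every mitochondrial DNAJ member in the same comparison.

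A further 12 nucleotide exchange factors and other cofactors of HSP70 formed a list of their own. With CCF642, 5 of these were called higher and 3 lower (41.7% and 25.0%, where 31.8% and 31.3% of all genes were). With CCF642-34, 5 were called higher and 2 lower (41.7% and 16.7%, where 29.8% and 27.8% of all genes were). Directly compared, CCF642-34 gave more RNA than CCF642 for 3 of them (25.0%) and less for 1 (8.33%). Of all genes, 15.9% were called higher and 17.4% lower in that comparison. BAG3, which releases clients of cytosolic HSP70 towards autophagy, rose most, by 1.95 ± 0.04 and 1.18 ± 0.04 (adjusted p = 1.13e-37 and 2.12e-28, limma). Like the heat-inducible DNAJ members it was lower with CCF642-34 than with CCF642, by 0.77 on the log2 scale (SE 0.04, adjusted p = 4.46e-20). BAG1, another exchange factor, fell by 0.52 with CCF642 and by 0.33 with CCF642-34 on the log2 scale (SE 0.05 and 0.05, adjusted p = 1.47e-12 and 2.40e-07, limma). BAG2 also fell with each compound, by 0.31 and by 0.42 (adjusted p = 0.0423 and 0.00641, limma). GRPEL1, an exchange factor of HSPA9, fell by 0.30 with CCF642 (adjusted p = 0.000456, limma). With CCF642-34 GRPEL1 was at -0.016 (adjusted p = 0.866, limma). GRPEL2, of the same list, rose by 0.98 ± 0.05 and 0.86 ± 0.05 with the compounds (adjusted p = 1.12e-21 and 2.84e-19, limma).

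The libraries held between 20567313 and 28459677 reads, and each of the 36 members had at least 28 reads in every library. In 11 members, exons overlap those of another listed gene, and 5 (DNAJA1, DNAJB1, DNAJB5, DNAJC8 and DNAJC19) have pseudogenes named after them. All 8 plasma cell markers were listed and summed to between 4754 and 5077 CPM, and none of 3 mature B cell and 3 monocyte markers was listed. Of 3 T cell markers only CD3E was listed, and of 2 erythroid markers only HBB, both under 5 CPM in every library. COL1A1, 1 of 2 stromal markers and the one listed, lay at 1.09 and 1.50 CPM in the vehicle libraries, at 8.99 and 10.5 CPM with CCF642 and at 2.74 and 3.53 CPM with CCF642-34, in the order of the heat-inducible members, and its part in the results was not tested.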

How the data were processed

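PolyA RNA of MM1.S cells was enriched with oligo(dT), fragmented and primed with random hexamers. The authors deposited CPM values for each library, without log transformation; this unit was read from the values. The submitters' processing notes name STAR, edgeR (3.24.3), limma (3.38.3) and build hg19; the counting tool and its annotation are not given in the sources used here. All values (100%) were whole multiples of 1 read, within 0.01 of a read, which gave totals of 20567313 to 28459677 reads, and the highest CPM of every listed gene was at least 1.50. These reads are not known to be independent molecules.

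CPM values were scaled by TMM (edgeR 4.0.16), increased by 1, converted to log2 and fitted with limma (3.58.1, R 4.3.3) with a variance trend, all 3 groups together, which left 3 residual degrees of freedom and a prior of 42.9. Tests were two-sided. TMM factors were 1.05 and 1.05 with DMSO, 0.962 and 0.957 with CCF642 and 0.987 and 0.992 with CCF642-34. The members, lists and rules were chosen with earlier results of these data known. Named were all members of the 4 compartment lists and every other member called with a log2 fold change of at least 0.5 in any comparison, 25 in all; a member, partner or marker outside this rule was chosen after its values were seen. The squared difference between replicates was on average 2.29, 4.64 and 4.04 times its value from counting alone with DMSO, CCF642 and CCF642-34. These ratios are of variances, over genes with at least 50 reads in both replicates.

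Alternatives were library size alone, DESeq2's size factors, a pseudocount of 0.1 or 4, only genes with a mean CPM of at least 5, limma-voom, edgeR's quasi-likelihood test and DESeq2 (1.42.0) on the recovered reads, a replicate block, other lists, and fits without each library, in which the lone sample is assumed to vary like the others. The script was tested on simulated data. Promoter windows are RefSeq's on GRCh38.p14 and gene lengths, pseudogenes and overlaps GENCODE release 29's on GRCh38, a different build from that of the alignment. A deposited table of the whole series was not used.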

Additional observations from a re-analysis of the deposited data

How the results depend on the processing

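Of 75 pairs of a named member and a comparison, 51 were called, 17 of these lost the call in at least 1 of 15 alternatives, 1 turned its sign and 7 others gained a call. The increases of DNAJB9, DNAJB2, DNAJA1, DNAJA4 and DNAJB4 with each compound kept direction and call in all 15. Library size alone lowered the median of all genes by 0.13 on the log2 scale with CCF642 and by 0.078 with CCF642-34. With it, 14 members were higher than DMSO with CCF642 in place of 20, and 11 were lower in place of 5. With CCF642-34, 16 members were higher than DMSO in place of 21. Between the compounds, 5 members in place of 8 were lower with CCF642-34 than with CCF642. ER lumen medians were 0.15 with CCF642, 0.35 with CCF642-34 and 0.18 between the compounds. Heat-inducible medians were 0.89 and 0.45 with CCF642 and CCF642-34, and mitochondrial medians were -0.25 and -0.012. Library size alone also turned DNAJA3 (-0.023) and DNAJB12 (-0.094) with CCF642, DNAJC10 (-0.025) and DNAJC19 (-0.012) with CCF642-34, and DNAJA2 (0.020) between the compounds. DESeq2 on the recovered reads left 3 members lower with CCF642; for this and the preceding lost calls the cause was not tested. Without DNAJB6 the heat-inducible median with CCF642 was 1.28, and with the ER membrane members the ER medians were 0.23, 0.28 and 0.080. Leaving out 1 library gave 3 to 5 members lower with CCF642 and 5 to 9 lower between the compounds, an ER lumen median of 0.42 to 0.45 and a mitochondrial median of -0.0031 to 0.088 with CCF642-34; without DMSO replicate 2 or CCF642 replicate 1 the count with CCF642 was 3, and without CCF642-34 replicate 1 the count between the compounds was 5. Over the same fits, DNAJC16 ranged from -0.11 to 0.012 and DNAJC30 from -0.064 to 0.25 with CCF642-34, and between the compounds DNAJC16 from -0.00024 to 0.065, DNAJC30 from -0.20 to 0.11, DNAJA2 from -0.065 to 0.018 and DNAJC12 from -0.029 to 0.42. Same-numbered libraries deviated little together (correlations across 10311 genes -0.027, -0.058 and 0.070). Whether they shared a culture or batch is not stated, and these correlations cannot decide it. With a replicate block, 19 members were higher with CCF642, DNAJA3 losing its call (adjusted p = 0.0511, limma). DNAJC2 gained a call between the compounds with that block (adjusted p = 0.0394, limma). With 2 libraries per group, no test for outlying libraries was made.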

Other observations

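Some J-domain genes stand outside the rule. DNAJC3 (p58IPK), a BiP partner of the ER lumen, stood at 248 and 237 CPM in the DMSO libraries, 305 and 319 CPM in the CCF642 libraries and 337 and 342 CPM in the CCF642-34 libraries and rose by 0.50 ± 0.04 and 0.58 ± 0.04 (limma, adjusted p = 2.05e-14 and 2.23e-16), and SEC63, the J-domain protein of the translocon, rose by 0.36 ± 0.04 and 0.41 ± 0.04 (adjusted p = 5.28e-10 and 2.23e-11). GAK, which uncoats clathrin vesicles, rose by 0.35 ± 0.05 with CCF642 and was at 0.04 ± 0.05 with CCF642-34 (limma, adjusted p = 6.46e-09 and 0.504), and was lower with CCF642-34 than with CCF642 by 0.31 (adjusted p = 5.22e-07).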
